A study of Homo sapiens with 27 samples.

Results

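The SMAD transcription factor family was measured here through 7 genes, SMAD1 to SMAD7, taken by their Ensembl identifiers from a table of 14008 genes. The cells were teloHAEC, aortic endothelial cells of human origin made immortal with telomerase. The members were chosen by name, not by a cut on any value measured in these cells, though earlier results of these data were known. All 7 were in the table. QuantSeq libraries, which count sequence tags at the 3′ ends of messenger RNAs, came from cells collected 2 days after electroporation of Cas9 loaded with guide RNA into 150000 cells per replicate. The 27 libraries form 2 experiment sets, called A and B in the labels. Set A held 4 libraries with guides flanking a candidate enhancer of SMAD3 (SMAD3 deletion), 4 with a guide against HPRT, a purine salvage gene that served as the positive control of cleavage (HPRT-targeted), and 4 with a non-targeting guide (negative control). Set B held 4 libraries with guides flanking a candidate enhancer of LDAH, the gene of a lipid droplet hydrolase (LDAH deletion), 4 that were HPRT-targeted and 7 of the negative control. All groups received Cas9 and an electric pulse. The cells were unselected pools in which edited and unedited alleles are mixed, and the share of deleted alleles was not given in the sources used here. The labels do not say that replicates were separate cultures before electroporation, so p-values reflect only how these samples scatter, which may be technical. Each title also carries a library number that the labels do not explain. In both sets the deletion libraries have a block of numbers below those of the controls, whose 2 groups alternate for the most part, so whatever the number stands for cannot be told apart from the deletion.

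SMAD proteins carry signals of the TGF-beta superfamily from receptors at the cell surface to the nucleus. SMAD2 and SMAD3 are phosphorylated by TGF-beta and activin receptors, SMAD1 and SMAD5 by BMP receptors, and SMAD4 is the partner shared by both branches. SMAD6 and SMAD7 are inhibitory members, themselves induced by the pathway, which block receptors and recruit ubiquitin ligases. In endothelial cells BMP signalling through SMAD1 and SMAD5 acts on vessel quiescence, and SMAD3 lies in a locus associated with coronary artery disease and aortic aneurysm.

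On GRCh38 with GENCODE 29, SMAD1 (ENSG00000170365) spans bases 145481194 to 145558079 of chromosome 4, SMAD5 (ENSG00000113658) 136132845 to 136188747 of chromosome 5, and SMAD3 (ENSG00000166949) 67063763 to 67195195 of chromosome 15. SMAD6 (ENSG00000137834) lies at 66702228 to 66782848 of chromosome 15 and ends 280.9 kb before SMAD3 begins, on the same strand. SMAD2 (ENSG00000175387, 47808957 to 47931146), SMAD7 (ENSG00000101665, 48919853 to 48952052) and SMAD4 (ENSG00000141646, 51028394 to 51085045) share chromosome 18. Among annotated genes that overlap a member, the table held 1, SMAD5-AS1, on the opposite strand of SMAD5, with 53 counts over the 27 libraries against 22760 for SMAD5. The use of strand in counting was not given in the sources used here.

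The 250 bases before the start sites of the neighbours SMAD3 and SMAD6 are shown because the deletion was aimed at SMAD3 and because SMAD6 carries a SMAD binding palindrome there. They come from RefSeq on GRCh38.p14, plus strand, 5′ to 3′, with the palindrome GTCTAGAC in capitals. The stretch of SMAD3 is chr15:67065352-67065601, the most upstream of its 5 listed start sites, and that of SMAD6 is chr15:66701986-66702235.
SMAD3: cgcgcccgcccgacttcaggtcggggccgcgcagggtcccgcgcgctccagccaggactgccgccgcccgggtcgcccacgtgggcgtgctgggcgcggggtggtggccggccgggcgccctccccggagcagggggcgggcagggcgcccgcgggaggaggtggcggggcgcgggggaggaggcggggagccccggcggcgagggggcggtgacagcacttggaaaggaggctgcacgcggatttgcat
SMAD6: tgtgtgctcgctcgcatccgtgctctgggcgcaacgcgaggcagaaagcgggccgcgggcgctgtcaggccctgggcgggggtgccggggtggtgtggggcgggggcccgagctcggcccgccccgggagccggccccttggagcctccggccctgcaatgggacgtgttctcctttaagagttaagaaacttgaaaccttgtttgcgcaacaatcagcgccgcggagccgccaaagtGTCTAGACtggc
The palindrome, which is its own reverse complement and so reads the same on both strands, was searched in windows of 300 bases, 250 before and 50 after each start site. It was found in 1 of the 18 windows listed for the 7 genes and in 71 of 35116 windows of all genes (0.202%). In SMAD6 it begins 12 bases before the start site. A match describes letters, not a bound site, and no binding was measured here.

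Total counts per library ran from 4761002 to 7752413 in set A and from 3430481 to 6414050 in set B. A gene with no tag in a library could still stand at up to 0.387 to 0.875 CPM (counts scaled to a library of 1000000), the value that 3 counts would give in it, a limit that covers counting error only. Expression over all genes stood apart in 7 libraries, with a median correlation to the rest of the set of 0.924 to 0.960 in A and 0.858 to 0.879 in B, against 0.977 to 0.981 and 0.928 to 0.953 in the other 20. In set A these were replicate 4 of the SMAD3 deletion and replicate 3 of HPRT-targeted. In set B they were replicate 4 of the LDAH deletion, replicates 6 and 7 of the negative control, and replicates 2 and 4 of HPRT-targeted. Ribosomal protein genes took 14.2% to 16.5% of their tags and 8.78% to 13.8% in the others. All 11 endothelial markers examined were in the table, with PECAM1 at 163 to 592 CPM and CDH5 at 105 to 423 CPM, while VWF was low, at 0 to 7.05 CPM with 3 libraries at 0. Of 8 smooth muscle and mesenchymal markers 2 were in the table: ACTA2 reached 14.4 to 46.5 CPM and PDGFRA 0 to 2.62 CPM. Of 7 blood cell markers CD14 alone was in the table, at 0 to 3.79 CPM.

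Levels below are CPM on 1 scale for all 27 libraries. Each transcript gives tags at its 3′ end whatever its length, so levels of different genes can be set side by side as tags, not as protein. In the negative control of set A, SMAD3 was the most abundant member, at 134 ± 9.55 CPM (SD, n = 4), followed by SMAD5 at 97.6 ± 4.25, SMAD2 at 73.4 ± 3.64, SMAD1 at 49.0 ± 6.54 and SMAD4 at 36.4 ± 7.42 CPM. The inhibitors were scarce, with SMAD6 at 7.44 ± 1.88 and SMAD7 at 2.52 ± 1.46 CPM. No neighbours in this order overlapped except SMAD1 with SMAD4, whose libraries ran from 40.5 to 56.02 and from 27.2 to 44.1 CPM. The order at the top was another one in set B's negative control. SMAD5 led there at 167 ± 54.01 CPM (n = 7), then came SMAD3 at 116 ± 26.1, SMAD1 at 80.2 ± 22.4, SMAD2 at 77.5 ± 11.9, SMAD4 at 42.9 ± 15.2, SMAD6 at 5.30 ± 2.47 and SMAD7 at 4.21 ± 2.51 CPM. In set B every pair of neighbours in this order overlapped except SMAD4 and SMAD6.

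**Figure D1:**
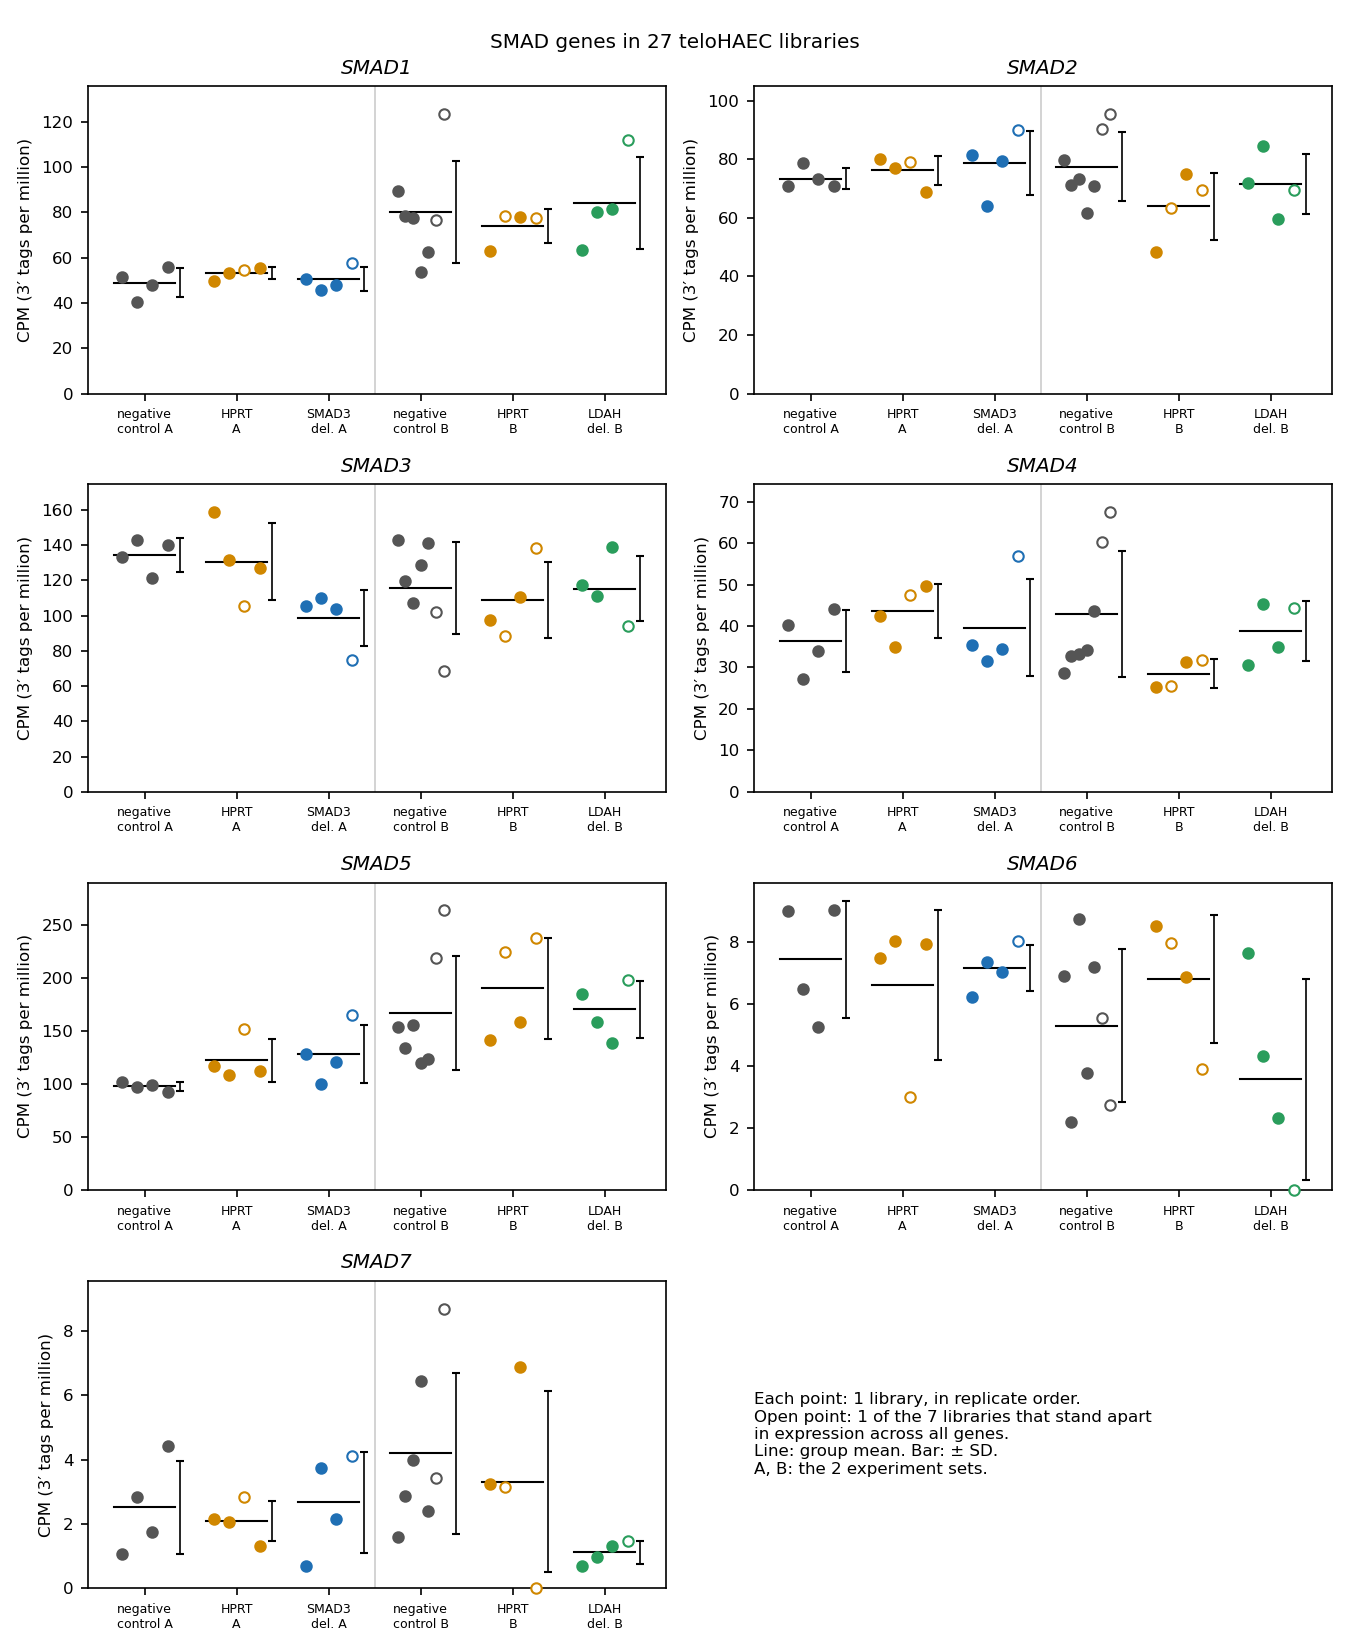
Level of each SMAD gene (CPM, linear axis from 0) in each of the 27 libraries, by group, with the group mean (line) and SD (bar). Open points are the 7 libraries that stand apart; SMAD3 deletion libraries lie below the negative control of set A for SMAD3, and SMAD5 is higher in set B.

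The deletion aimed at SMAD3 asks whether the candidate enhancer affects this gene in endothelial cells. SMAD3 stood at 106, 110, 104 and 75.0 CPM in the 4 SMAD3 deletion libraries and at 133, 143, 121 and 140 CPM in the 4 negative control libraries of set A. The groups did not overlap, and the lowest value belonged to replicate 4, which stands apart over all genes. In the edgeR fit of set A, the level was 0.740 times that of the control, with a 95% interval from 0.597 to 0.917. The log2 fold change was -0.44 ± 0.14 (SE), with an unadjusted p of 0.00929 in edgeR's quasi-likelihood test and a Benjamini-Hochberg adjusted p of 0.702 over 11467 genes, so the difference did not pass the threshold of 0.05. Without the libraries that stand apart the log2 fold change was -0.33 ± 0.10, with an edgeR adjusted p of 0.249. In a pool of cells, fewer cells expressing SMAD3 and less SMAD3 RNA per cell cannot be told apart.

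For SMAD5, a BMP branch member, the difference had the opposite sign. It stood at 128, 99.8, 121 and 165 CPM in the SMAD3 deletion libraries and at 102, 97.3, 99.4 and 91.9 CPM in the negative control. Replicate 2 of the deletion lay within the control's range and the highest value was again that of replicate 4. This gave a log2 fold change of 0.41 ± 0.15 (95% interval 0.08 to 0.73), with an unadjusted p of 0.0193 and an adjusted p of 0.702 in edgeR's test. It was 0.26 ± 0.10 without the libraries that stand apart, with an edgeR adjusted p of 0.355.

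The other receptor-regulated members and the common partner were close to the control in the SMAD3 deletion. SMAD2, the other TGF-beta branch member, stood at 81.4, 63.98, 79.3 and 90.0 CPM against 70.9, 78.6, 73.2 and 71.0 CPM, a log2 fold change of 0.11 ± 0.12. SMAD1 stood at 50.6, 45.6, 48.0 and 57.7 CPM against 51.5, 40.5, 47.8 and 56.02 CPM, a log2 fold change of 0.05 ± 0.12 (95% interval -0.21 to 0.32). SMAD4 stood at 35.4, 31.6, 34.5 and 56.9 CPM against 40.2, 27.2, 34.0 and 44.1 CPM, and its log2 fold change of 0.13 ± 0.20 became -0.10 ± 0.15 without the libraries that stand apart. These 3 genes overlapped with the control, and their intervals include 0.

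The inhibitors had few tags and wide intervals. SMAD6, the chromosome 15 neighbour of SMAD3, stood at 6.22, 7.36, 7.03 and 8.02 CPM in the SMAD3 deletion (43 to 55 counts) and at 9.01, 6.49, 5.26 and 9.02 CPM in the negative control, a log2 fold change of -0.05 ± 0.28 (95% interval -0.65 to 0.55). SMAD7, an inhibitor of TGF-beta receptors, stood at 0.691, 3.75, 2.16 and 4.11 CPM (5 to 28 counts) against 1.07, 2.84, 1.75 and 4.41 CPM, a log2 fold change of 0.11 ± 0.51. Its interval of -0.98 to 1.19 leaves changes of about that size undetectable at this depth. Across the family 0 of 7 members were called in this comparison, where 0% of the 11467 genes were called. At an unadjusted p under 0.05 there were 2 of 7 members, SMAD3 and SMAD5, and 6.78% of all genes. Groups did not overlap for 1 of 7 members, SMAD3, and for 5.44% of all genes. The median log2 fold change of the members was 0.11, with 5 of 7 positive, beside 0.00138 over all genes, and it was -0.10 with 2 positive without the libraries that stand apart.

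**Figure D2:**
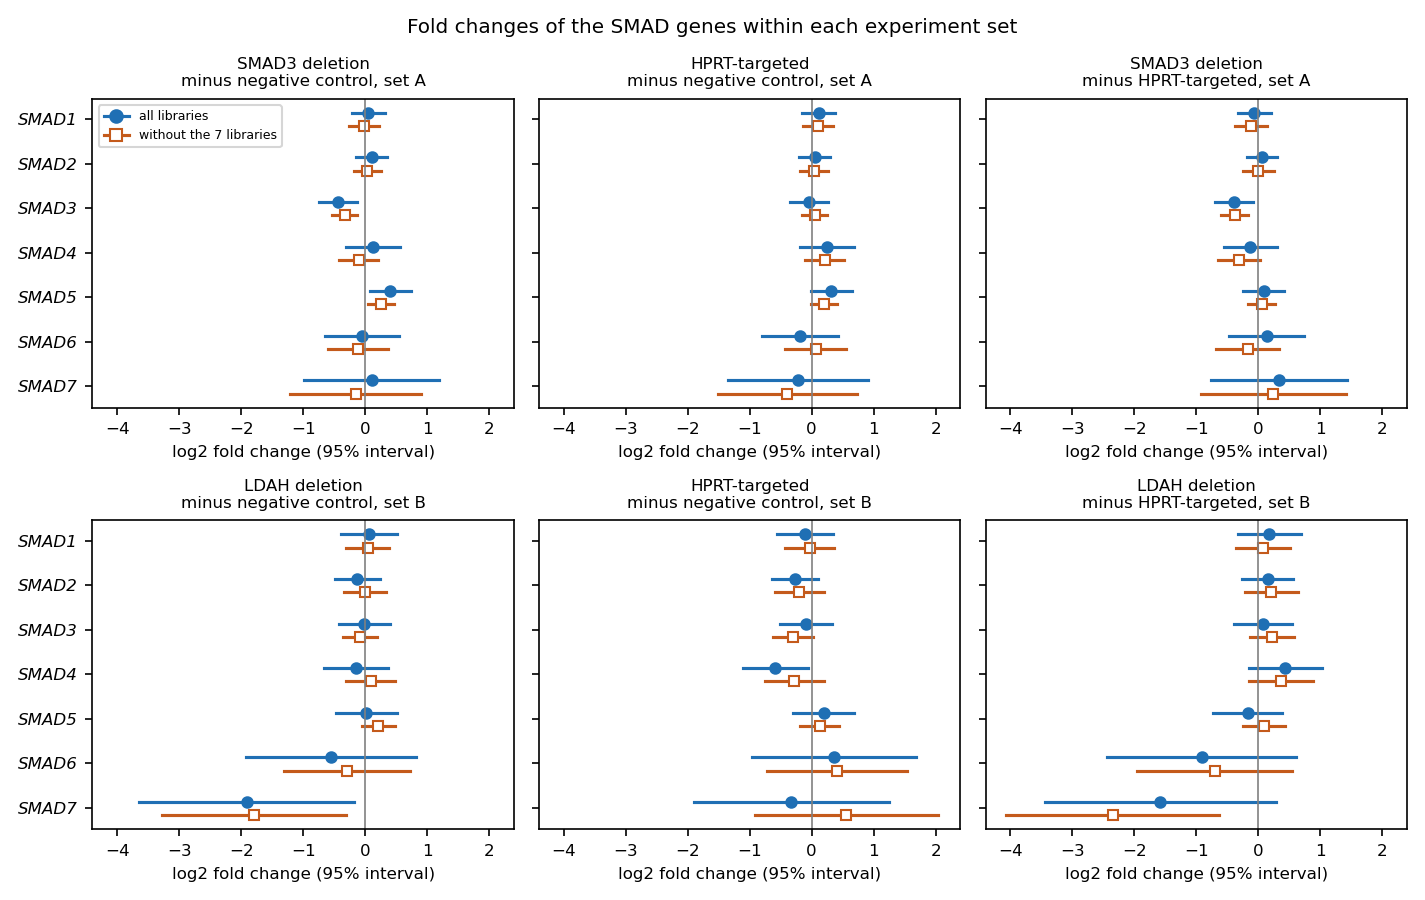
Log2 fold change of each SMAD gene with its 95% interval (linear axis) in the 6 comparisons within a set, with all libraries (filled circles) and without the 7 that stand apart (open squares). SMAD3 in the SMAD3 deletion lies below 0 against both controls; SMAD7 in the LDAH deletion has the lowest values and wide intervals.

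HPRT-targeted cells are a control in which the genome is cleaved at an unrelated gene. SMAD3 stood at 159, 132, 105 and 127 CPM in the HPRT-targeted libraries of set A and overlapped with the negative control on both sides. Its log2 fold change was -0.05 ± 0.14 (95% interval -0.35 to 0.26). SMAD5 stood at 117, 108, 151 and 112 CPM, all above the negative control's highest of 102 CPM, and replicate 3, the highest, stands apart over all genes. The log2 fold change of SMAD5 was 0.32 ± 0.15, with an unadjusted p of 0.0567 and an adjusted p of 0.988 in edgeR's test, and 0.20 ± 0.10 without the libraries that stand apart. It was 1 of 7 members whose groups did not overlap here, beside 4.33% of all genes. SMAD4 had 0.25 ± 0.20, SMAD1 0.12 ± 0.12, SMAD2 0.05 ± 0.12, SMAD6 -0.18 ± 0.29 and SMAD7 -0.23 ± 0.53 as log2 fold changes. No member was called (0 of 7, 0% of all genes), and 0 of 7 had an unadjusted p under 0.05 beside 2.24% of all genes.

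The sign for SMAD3 was the same when the cleaved control was the reference. SMAD3 deletion minus HPRT-targeted was -0.39 ± 0.14 (95% interval -0.70 to -0.08) on the log2 scale, 0.764 times the HPRT-targeted level, with an unadjusted p of 0.0173 and an adjusted p of 0.747 in edgeR's test. The groups overlapped through HPRT-targeted replicate 3, at 105 CPM. Without the libraries that stand apart the value was -0.38 ± 0.10, with an adjusted p of 0.0985 in edgeR's test. In that fit 55 of 11574 genes (0.475%) were called and 1661 had an unadjusted p under 0.05. The remaining HPRT-targeted libraries were at 127 to 159 CPM and the remaining deletion libraries at 104 to 110 CPM. How many of all genes separate these few libraries was not counted. With all libraries, SMAD5 differed less from HPRT-targeted, by 0.09 ± 0.15. Both comparisons of the deletion share its 4 libraries, so they are not independent. With all libraries the call count was 0 of 7 (0% of all genes). There 1 of 7 members, SMAD3, had an unadjusted p under 0.05 (5.83% of all genes), and groups did not overlap for 0 of 7 (3.41% of all genes).

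The LDAH deletion serves as a deletion elsewhere in the genome. SMAD3 stood at 117, 111, 139 and 94.3 CPM in the LDAH deletion libraries, within the 68.5 to 143 CPM (median 120 CPM) of the 7 negative control libraries of set B. Its log2 fold change was -0.01 ± 0.20 (95% interval -0.43 to 0.41). SMAD5 stood at 185, 158, 139 and 198 CPM against 120 to 263 CPM (median 153 CPM), a log2 fold change of 0.02 ± 0.23. Both genes overlapped fully with their control. The values of SMAD1 (0.07 ± 0.21), SMAD2 (-0.12 ± 0.17) and SMAD4 (-0.15 ± 0.25) had intervals that include 0 as well.

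The member with the largest difference in the LDAH deletion was the inhibitor SMAD7. It stood at 0.694, 0.961, 1.32 and 1.48 CPM, or 4, 6, 8 and 5 counts, in the LDAH deletion libraries. Over set B's negative control libraries it ranged from 1.61 to 8.70 CPM (median 3.44 CPM, 10 to 41 counts). The groups did not overlap, with the nearest libraries at 1.48 and 1.61 CPM. The log2 fold change was -1.91 ± 0.82 (95% interval -3.65 to -0.17), with an unadjusted p of 0.0333 and an adjusted p of 1.00 in edgeR's test, so it did not pass. Setting aside the libraries that stand apart gave -1.79 ± 0.72, with an adjusted p of 0.258. Against the HPRT-targeted libraries of set B, at 3.26, 3.15, 6.88 and 0 CPM, the log2 fold change was -1.58 ± 0.88, with an unadjusted p of 0.0909 in edgeR's test. The library at 0 is replicate 4, where 3 counts would have been 0.607 CPM. Without the libraries that stand apart, which include that one, it was -2.35 ± 0.83, with an adjusted p of 0.259 in edgeR's test.

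SMAD6, the other inhibitor, stood at 7.63, 4.33, 2.32 and 0 CPM in the LDAH deletion and at 2.19 to 8.75 CPM (median 5.54 CPM) in its negative control. The library at 0 is replicate 4, where 3 counts would have been 0.875 CPM. Its log2 fold change was -0.55 ± 0.65, and the spread over the 4 libraries covered most of the control's range. That value was -1.21 without replicate 1 of the deletion, -0.17 without replicate 4 and -0.29 without the libraries that stand apart. In this comparison 0 of 7 members were called (0% of 11769 genes), 1 of 7, SMAD7, had an unadjusted p under 0.05 (4.61% of all genes) and 1 of 7, SMAD7 again, did not overlap (1.08% of all genes). Against the HPRT-targeted libraries of set B the counts were 0 of 7 called (0%), 0 of 7 at the unadjusted p (4.22% of all genes) and 0 of 7 not overlapping (2.28% of all genes).

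In the HPRT-targeted cells of set B the member with the smallest p was SMAD4, the common partner. It stood at 25.3, 25.6, 31.3 and 31.8 CPM, against 28.6 to 67.5 CPM (median 34.3 CPM) in its negative control. The groups overlapped, and the control's highest values, 60.3 and 67.5 CPM, were in replicates 6 and 7, which stand apart over all genes. The log2 fold change was -0.59 ± 0.25 (95% interval -1.12 to -0.06), with an unadjusted p of 0.0322 and an adjusted p of 0.999 in edgeR's test. It was -0.28 ± 0.23 without the libraries that stand apart. SMAD3 stood at 97.5, 88.7, 111 and 138 CPM in these HPRT-targeted libraries and overlapped with the control. Its log2 fold change was -0.09 ± 0.20 (95% interval -0.51 to 0.33). Without the libraries that stand apart, which leaves 2 HPRT-targeted libraries, SMAD3 was at -0.30 ± 0.16 (95% interval -0.62 to 0.02). The SMAD3 deletion had -0.33 ± 0.10 against its own control under that alternative. None of the 7 members was called (0%), 1 of 7 had an unadjusted p under 0.05 (1.75% of all genes) and 0 of 7 did not overlap (0.280% of all genes).

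Differences between effects were tested in 1 fit of all 27 libraries. For SMAD3, the SMAD3 deletion effect minus the LDAH deletion effect, each against the negative control of its set, was -0.44 ± 0.26 on the log2 scale (95% interval -0.97 to 0.09), with an unadjusted p of 0.0985 in edgeR's test. It was -0.24 ± 0.16 without the libraries that stand apart. The difference for SMAD7 was 2.002 ± 0.99, with an unadjusted p of 0.0537. Neither passed, with 0 of 7 members called (0% of 12055 genes) and 0 of 7 at an unadjusted p under 0.05 (3.64% of all genes). For SMAD4, the HPRT effect in set B minus that in set A was -0.85 ± 0.33 (95% interval -1.53 to -0.16), with an unadjusted p of 0.0176 and an adjusted p of 1.00 in edgeR's test. That value was -0.50 ± 0.27 without the libraries that stand apart. It was 1 of 7 members at an unadjusted p under 0.05, beside 1.32% of all genes, and 0 of 7 were called (0%).

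Between the negative controls of the sets, SMAD1 and SMAD5, the BMP branch members among the 7 genes, were higher in set B. These were the only ones of the 7 called in any of the 9 comparisons. SMAD5 ranged from 120 to 263 CPM (median 153 CPM) in the 7 libraries of set B and from 91.9 to 102 CPM in the 4 of set A, without overlap. The log2 difference, set B minus set A, was 0.77 ± 0.20, with a Benjamini-Hochberg adjusted p of 0.0144 in edgeR's test, and all 7 libraries of set B lay above all 4 of set A. SMAD1 ranged from 53.5 to 123 CPM (median 77.4 CPM) in set B and from 40.5 to 56.02 CPM in set A, with overlap at set B replicate 4. Its log2 difference was 0.71 ± 0.18, with an edgeR adjusted p of 0.00972, and 6 of the 7 set B libraries lay above every set A library. Without the libraries that stand apart the differences were 0.49 ± 0.11 for SMAD5 (adjusted p 0.000801) and 0.56 ± 0.14 for SMAD1 (adjusted p 0.00233) in edgeR's test. SMAD1 lost the call without set A negative control replicate 2 (0.63, adjusted p 0.0574), and SMAD5 lost it without replicate 4 of that group (0.74, adjusted p 0.0568), each in edgeR's test.

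The other 5 members did not pass between the sets. SMAD3 had a log2 difference of -0.21 ± 0.17, SMAD2 of 0.08 ± 0.14 and SMAD4 of 0.23 ± 0.22, while the inhibitors were at -0.48 ± 0.47 for SMAD6 and 0.74 ± 0.64 for SMAD7. Set B against set A called 2 of 7 members, beside 9.60% of all genes (1157 of 12055), and 28.2% without the libraries that stand apart, where the 2 members remained called. At an unadjusted p under 0.05 there were 2 of 7 beside 21.9%, and 1 of 7 did not overlap, beside 11.9%. The sets differ in every step that was done per set, and set and handling cannot be told apart.

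The medians of the libraries that stand apart differed from those of the rest of their set in the same direction for several members. SMAD5 had a median of 158 CPM in the 2 such libraries of set A and 105 CPM in the other 10, and 224 CPM in the 5 of set B and 148 CPM in the other 10. The log2 differences were 0.59 and 0.60. SMAD3 had medians of 90.1 and 129 CPM in set A and of 94.3 and 119 CPM in set B, log2 differences of -0.54 and -0.33. SMAD4 was higher in them, by 0.56 and 0.43, and SMAD6 lower, by -0.55 and -0.77. SMAD7 was higher, by 0.62 in set A and 0.24 in set B, while SMAD1 (0.16 and 0.01) and SMAD2 (0.17 and -0.04) differed little. Single libraries did not all follow these medians, and among the members only SMAD5 was without overlap in both sets. How many of all genes separate the libraries that stand apart from the rest was not counted. The lack of overlap is therefore not shown to be particular to SMAD5. In set B, SMAD4 ran from 25.6 to 67.5 CPM in the libraries that stand apart and from 25.3 to 45.3 CPM in the rest. SMAD3 ran there from 68.5 to 138 CPM and from 97.5 to 143 CPM. SMAD6 ran from 2.99 to 8.02 CPM and from 5.26 to 9.02 CPM in set A, and from 0 to 7.96 CPM and from 2.19 to 8.75 CPM in set B. These are descriptions, with no test, since the libraries were set aside by their expression over all genes. The part of the higher ribosomal protein share in the group differences was not tested.

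The balance of SMAD3 and SMAD5 within the family is given as shares, without a test. SMAD3 made up 31.7% to 36.1% of the tags of the 7 genes in the negative control of set A, 16.4% to 30.4% in the SMAD3 deletion and 23.7% to 34.7% in the HPRT-targeted libraries. SMAD5 made up 22.1% to 25.96%, 27.6% to 36.1% and 25.5% to 34.1% of the tags in the same groups. In set B, SMAD5 made up 27.4% to 41.8% in the negative control, 33.8% to 45.6% in HPRT-targeted and 30.4% to 38.8% in LDAH deletion libraries. SMAD3 made up 10.9% to 31.5%, 18.1% to 25.2% and 18.1% to 30.4% in the same groups of set B. The lowest share in each of these groups was in a library that stands apart. The same holds for the 16.4% of the SMAD3 deletion and the 23.7% of HPRT-targeted in set A. Within set A, the shares of both genes did not overlap between the SMAD3 deletion and the negative control. Shares of 1 sum depend on each other, so that a lower SMAD3 by itself gives a higher share of SMAD5, and in CPM SMAD5 overlapped at deletion replicate 2.

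**Figure D3:**
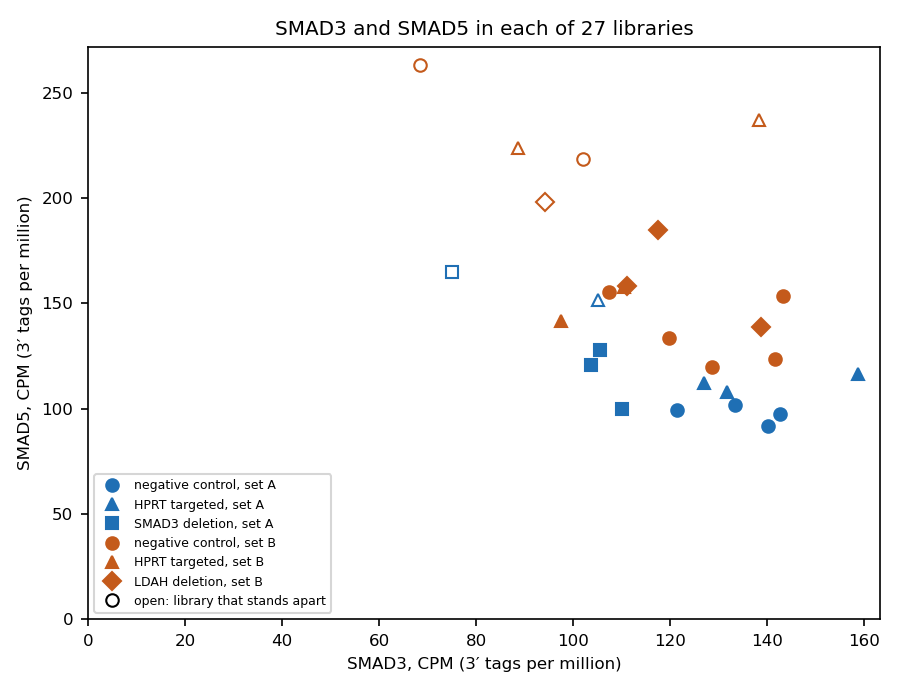
Level of SMAD5 against SMAD3 (CPM, linear axes from 0), 1 point per library; colour gives the set, shape the group, and open symbols the 7 libraries that stand apart. Within each set the open symbols lie at higher SMAD5 than the filled ones, and the SMAD3 deletion libraries (squares) lie at 75.0 to 110 CPM of SMAD3.

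Over all 27 libraries, with log2 CPM centred on each set, SMAD3 and SMAD5 had a Pearson r of -0.65, the most negative of the 21 pairs of members, and -0.38 over the 20 libraries that do not stand apart. The highest was 0.61, for SMAD2 and SMAD4, and 0.24 without those libraries. Over the 20 libraries the order of the pairs was another one, with SMAD5 and SMAD7 lowest at -0.55 and SMAD2 and SMAD5 highest at 0.44. The points share libraries and depth, so these are descriptions without p. Among 8466 genes with a mean of at least 10 CPM, those most like SMAD3 were LIMK2 (0.86), NUDC (0.81) and UBQLN4 (0.80), which without the libraries that stand apart had 0.74, 0.46 and 0.69. Most like SMAD5 were ARL6IP5 (0.94), NCOA4 (0.93) and SRGN (0.92), with 0.75, 0.73 and 0.57. SMAD1 was most like ALDH9A1 (0.81), TSNAX and ZNF24TR (both 0.79), SMAD2 like QPCT (0.78) and XPR1 (0.73), and SMAD4 like BBS7 (0.75), RBM18 and PDCD2 (both 0.72). For SMAD6 the leading genes were ENSG00000286264 (0.82), BEND7 (0.76) and MANSC1 (0.73), which were at 0.15, 0.10 and 0.50 over the 20 libraries, and for SMAD7 they were ENSG00000263276 (0.72), PLSCR1 (0.71) and LSM8 (0.70). BBS7 and SMAD4 were at 0.75 over the 20 libraries as well.

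The rest of the pathway was read from lists of its parts in the SMAD3 deletion and set A's negative control, where 0% of all genes were called and 0 genes of any list were. Of the ligands, 6 of 9 listed genes could be tested, of which 4 were positive, and the median log2 fold change was 0.04. BMP6, the most abundant of them, stood at 158 ± 21.1 CPM in the deletion and 171 ± 19.9 CPM in the control (n = 4 each), a log2 fold change of -0.11 ± 0.13. TGFB1 stood at 11.6 ± 3.34 and 13.2 ± 0.78 CPM (-0.16 ± 0.23). Both are secreted growth factors, of the BMP and the TGF-beta branch, and neither differed beyond its spread. Of the extracellular regulators 9 of 11 were tested, with a median of -0.17 and 3 positive. FST, the activin trap follistatin, had -0.24 ± 0.16 and LTBP2, a latent TGF-beta binding protein, -0.29 ± 0.45. The value of LTBP2 moved to 0.03 ± 0.19 without the libraries that stand apart.

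Of the receptors 10 of 11 were tested, with a median of 0.07 and 6 positive. ENG, the endothelial co-receptor endoglin, stood at 47.6 to 159 CPM in the SMAD3 deletion and 152 to 186 CPM in the control, a log2 fold change of -0.44 ± 0.33. It was -0.17 ± 0.10 without the libraries that stand apart. ACVR1, a type I receptor of BMPs, had -0.19 ± 0.15, and -0.08 ± 0.12 with the same libraries set aside. It was at -0.06 without SMAD3 deletion replicate 4 alone. Both receptors overlapped between the groups, and no receptor had an unadjusted p under 0.05.

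Genes that act on SMAD proteins gave the smallest p of these lists. Of 13 genes of SMAD turnover and dephosphorylation all were tested. There were 11 positive, beside 50.3% of all genes, and the median was 0.13. RNF111, a ubiquitin ligase that degrades SMAD7 and the corepressors SKI and SKIL, stood at 12.05 to 20.6 CPM in the deletion and 10.7 to 12.1 CPM in the control, with overlap. Its log2 fold change was 0.56 ± 0.18, with an unadjusted p of 0.00905 and an adjusted p of 0.702 in edgeR's test, and it was 0.46 ± 0.19 without the libraries that stand apart. RNF111 was not higher in the deletion alone. The HPRT-targeted libraries of set A stood at 13.6 to 17.8 CPM, all above the control's range. USP15, a deubiquitinase of receptor-regulated SMADs, had 0.26 ± 0.13. Of the nuclear partners 9 of 11 were tested, with a median of 0.08 and 5 positive. SKIL, a corepressor that binds SMAD3 and is itself a TGF-beta target, stood at 128 to 135 CPM in the deletion and 90.6 to 117 CPM in the control. These groups did not overlap, as for 5.44% of all genes. The HPRT-targeted libraries of set A ran from 103 to 141 CPM, a range that holds all those of the deletion. The log2 fold change of SKIL, deletion minus negative control, was 0.31 ± 0.12. Its unadjusted p was 0.0214 and its adjusted p 0.702 in edgeR's test. The value was 0.30 ± 0.10 without the libraries that stand apart. EP300, a histone acetyltransferase that SMADs recruit, had -0.51 ± 0.40, with SMAD3 deletion libraries from 17.2 to 91.0 CPM. It was -0.20 ± 0.10 without the libraries that stand apart and -0.19 without SMAD3 deletion replicate 4 alone.

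Of genes induced through SMAD3, 14 of 16 were tested, with 6 positive, a median of -0.14, and 1, SKIL, at an unadjusted p under 0.05. CDKN2B, a cell cycle inhibitor induced by TGF-beta, stood at 14.1 ± 1.90 CPM in the SMAD3 deletion and 17.1 ± 0.89 CPM in the control (n = 4 each). Its log2 fold change was -0.27 ± 0.15, and -0.19 ± 0.15 without the libraries that stand apart. The groups did not overlap, at 11.4 to 15.7 and 16.2 to 18.3 CPM, as for 5.44% of all genes. HPRT-targeted libraries of set A ran from 15.1 to 21.2 CPM. Of genes induced through SMAD1 and SMAD5, 7 of 10 were tested, with 4 positive and a median of 0.02. ID1 and ID3, inhibitors of basic helix-loop-helix factors, had -0.11 ± 0.13 and -0.15 ± 0.13. None of the 7 had an unadjusted p under 0.05.

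**Figure D4:**
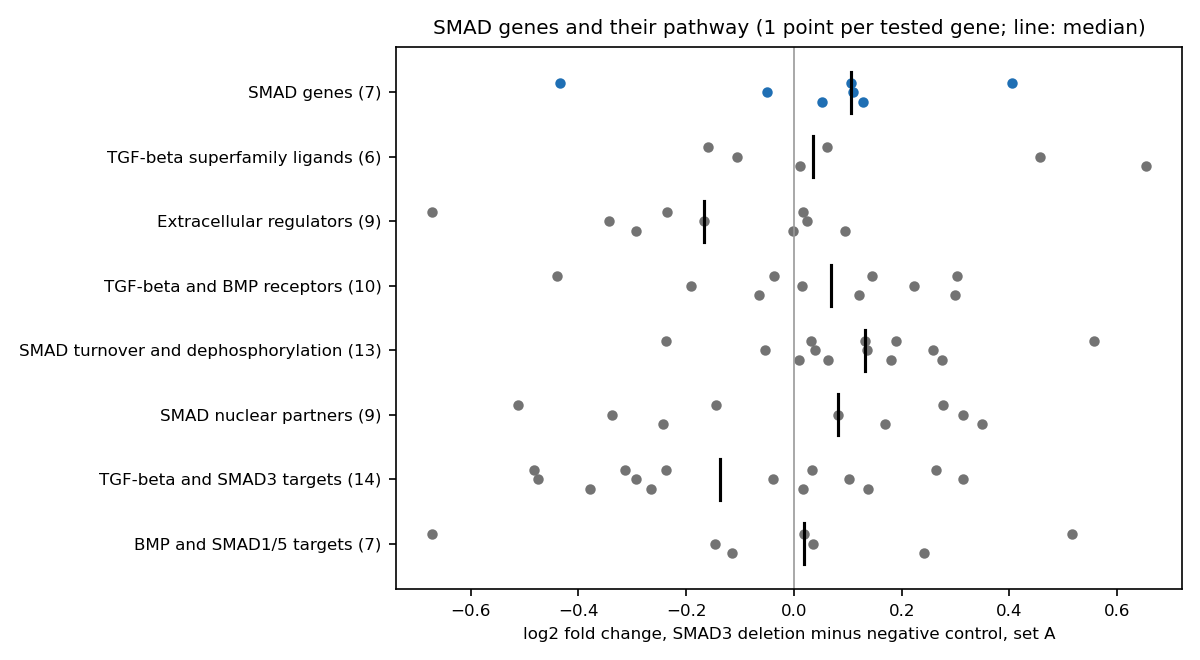
Log2 fold change (linear axis) of each tested gene, SMAD3 deletion minus negative control of set A, for the 7 SMAD genes and 7 lists of pathway genes, with the median of each list as a line and the number of genes in brackets. No gene passed the adjusted threshold; the medians lie between -0.17 and 0.13.

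Between the negative controls of the sets, 5 genes of these lists were called, named here after their values were seen. TGFB1 (1.13 ± 0.36, edgeR adjusted p 0.0423) was higher in set B and BMP6 (-0.50 ± 0.14, adjusted p 0.0246) lower. SMURF2 (0.67 ± 0.17, edgeR adjusted p 0.0112) and WWP1 (0.57 ± 0.17, adjusted p 0.0329), ubiquitin ligases that act on SMADs and their receptors, were higher. ANGPTL4, a TGF-beta target that acts on lipoprotein lipase, was lower (-0.71 ± 0.23, edgeR adjusted p 0.0438). The ligands thus differed between sets in both directions, as 2 of 6 tested, while 2 of 13 turnover genes and 1 of 14 SMAD3 targets were called, beside the 9.60% of all genes. Without the libraries that stand apart, where 28.2% of all genes were called, the calls were 2 ligands, 2 extracellular regulators, 2 receptors, 5 turnover genes, 6 nuclear partners, 5 SMAD3 targets and 2 targets of SMAD1 and SMAD5. Of the endothelial markers 1 of 11 was called with all libraries and 6 of 11 were without those that stand apart, and their part in these differences was not tested.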

How the data were processed

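The authors deposited a table of whole-number counts of 3′ tags per gene, 14008 genes by 27 libraries, and every column was used (0 were not). Libraries were QuantSeq 3′ mRNA-seq FWD, read from 1 end over 86 cycles, per the labels' protocols. Per the submitters' processing notes, edgeR 3.24.3 and the build hg38 were used; which aligner and counter were used is not given in the sources used here. Identifiers were matched to symbols for 13949 genes, through GENCODE 29 for 57 more, and 2 had none.

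Counts were fitted with edgeR 4.0.16 in R 4.3.3: TMM factors, filterByExpr with the group, and the quasi-likelihood test, two-sided, called at a Benjamini-Hochberg adjusted p of 0.05 with all tested genes in the adjustment. Set A was fitted with 12 libraries (11467 genes), set B with 15 (11769) and both with 27 (12055, for differences of effects and between sets). SE is the log2 fold change divided by the square root of F, and 95% intervals use it with the t distribution; they are approximate for genes with few counts. CPM use TMM factors over all 27 libraries, so fold changes of a set's fit need not equal ratios of these means. Likeness used log2 CPM with a prior count of 2. A library stood apart when its median correlation with its set lay more than 3 scaled median absolute deviations below the median. Pairs of libraries within a group had 3.03 to 78.9 as chi-square over its degrees of freedom, more than sampling noise. Replicate numbers follow accession order and give no pairing. The fit was tested on simulated counts, with changes set only in genes of at least 10 CPM. Those changes were larger than the ones of SMAD3 and SMAD5 in the SMAD3 deletion. The simulation therefore does not bear on changes of that size or on the scarce SMAD6 and SMAD7.

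The members, gene lists, rules and alternatives were chosen with earlier results of these data known. Genes named are the 7 members, per list the 2 with the smallest p in the SMAD3 deletion against its negative control (mean of at least 10 CPM), and the 3 most like each member, of which 1 for SMAD2 is not reported here. Alternatives were DESeq2 1.42.0, its size factors within edgeR, voom with sample quality weights (limma 3.58.1), no filter, a mean of at least 10 CPM, all 27 libraries in each fit, leaving out the 7 libraries, and leaving out each library in turn.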

Additional observations from a re-analysis of the deposited data

Results flagged for a closer look

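Among the 42 sets of values of 1 gene in 1 group, 3 held a library far from the others by Dixon's criterion at 95%, which chance alone would meet in about 1 of 20 sets. SMAD1 in HPRT-targeted replicate 1 of set B stood at 62.9 CPM, while the other 3 libraries lay between 77.4 and 78.3 CPM. SMAD4 in SMAD3 deletion replicate 4 stood at 56.9 CPM, against 31.6 to 35.4 CPM in the other 3. SMAD6 in HPRT-targeted replicate 3 of set A stood at 2.99 CPM (18 counts), against 7.47 to 8.04 CPM. The second and the third of these are libraries that stand apart over all genes, and the first is not.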

How the results depend on the processing

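The number of SMAD genes called was 0 in 8 comparisons and 2 between the negative controls of the sets. It was the same under every alternative that applied, other than leaving out single libraries. Having all 27 libraries in the fit was no alternative for the differences of effects and between the sets, whose main fit already used them. SMAD6 and SMAD7 have no value under the filter of a mean of at least 10 CPM. The number called was 1 to 2 between the sets when 1 library was left out. SMAD1 was lost without set A negative control replicate 2 and SMAD5 without replicate 4. SMAD3 in the SMAD3 deletion kept its sign against both controls under every alternative run and was never called, as did SMAD7 in the LDAH deletion under those that gave it a value. No paired analysis was possible because the labels give no shared replicate numbers. The genes that changed sign below had main intervals that include 0, and the cause was not tested.

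Genes called over the whole table, 0 in the main fits within a set, depended on the test. DESeq2 called 3 for SMAD3 deletion against negative control, 1 for HPRT-targeted against negative control in set A, 17 for SMAD3 deletion against HPRT-targeted, 14 for LDAH deletion against negative control, 4 for the difference of the deletion effects and 2 for that of the HPRT effects. Voom with sample quality weights called 2 for SMAD3 deletion against negative control, 5 for SMAD3 deletion against HPRT-targeted, 1 for the difference of the deletion effects and 3639 between the negative controls. With all 27 libraries in the fit, LDAH deletion against negative control had 9. Without the libraries that stand apart there were 1 for SMAD3 deletion against negative control, 1 for HPRT-targeted in set A, 55 for SMAD3 deletion against HPRT-targeted, 212 for LDAH deletion against negative control, 77 for LDAH deletion against HPRT-targeted, 68 for the difference of the deletion effects, 1 for that of the HPRT effects and 3482 between the negative controls, against 1157 with all.

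Log2 values that changed sign with voom and sample weights were SMAD7 -0.23 in SMAD3 deletion against negative control, SMAD6 0.057 in HPRT-targeted of set A, SMAD6 -0.077 in SMAD3 deletion against HPRT-targeted, SMAD4 0.019 in LDAH deletion against negative control, SMAD7 0.24 in HPRT-targeted of set B, SMAD5 0.061 in LDAH deletion against HPRT-targeted, SMAD1 0.014 and SMAD4 -0.0099 in the difference of the deletion effects, SMAD7 0.53 in that of the HPRT effects and SMAD2 -0.037 between the negative controls. Without a filter, SMAD1 was at 0.000172 in the difference of the deletion effects. Without the libraries that stand apart, SMAD3 deletion against negative control had SMAD1 -0.023, SMAD4 -0.10, SMAD7 -0.15, TGFB1 0.010 and LTBP2 0.032, and HPRT-targeted of set A had SMAD3 0.048 and SMAD6 0.063. SMAD6 was at -0.17 in SMAD3 deletion against HPRT-targeted. In set B the same alternative gave SMAD2 0.00373 and SMAD4 0.089 in LDAH deletion against negative control, SMAD7 0.56 in HPRT-targeted and SMAD5 0.089 in LDAH deletion against HPRT-targeted. It gave SMAD4 -0.17 in the difference of the deletion effects, SMAD7 0.97 in that of the HPRT effects, and SMAD2 -0.039 and SMAD4 -0.075 between the negative controls.

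Leaving out 1 library at a time gave these ranges where a sign or a count changed. SMAD3 deletion against negative control had SMAD1 -0.028 to 0.12, SMAD4 -0.085 to 0.23, SMAD6 -0.19 to 0.065, SMAD7 -0.16 to 0.52, TGFB1 -0.29 to 0.026 and LTBP2 -0.71 to 0.048. Against HPRT-targeted it had SMAD2 -0.0026 to 0.15, SMAD5 -0.051 to 0.21, SMAD6 -0.11 to 0.24 and 0 to 2 genes called, the 2 without HPRT-targeted replicate 3. HPRT-targeted of set A had SMAD3 -0.15 to 0.044, SMAD6 -0.32 to 0.061 and SMAD7 -0.49 to 0.19, and that of set B had SMAD1 -0.19 to 0.029 and SMAD7 -0.98 to 0.083. LDAH deletion against negative control had SMAD1 -0.10 to 0.21, SMAD3 -0.11 to 0.070, SMAD5 -0.065 to 0.17 and 0 to 3 genes called, the 3 without LDAH deletion replicate 4. Against HPRT-targeted, SMAD3 had -0.019 to 0.22. The difference of the deletion effects had SMAD1 -0.16 to 0.14 and 0 to 4 genes called, the 4 without LDAH deletion replicate 4. That of the HPRT effects had SMAD3 -0.19 to 0.056, SMAD5 -0.26 to 0.013, SMAD7 -0.72 to 0.34 and 0 to 1 genes called, the 1 without HPRT-targeted replicate 3 of set A. Between the negative controls 693 to 1218 genes were called, and 731, 728 and 693 without replicates 1, 2 and 4 of set A.

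SMAD6 and SMAD7 had 0 to 59 and 0 to 43 counts per library. Their intervals hold counting error and scatter between libraries together, and the share of each was not tested.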

Other observations

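Outside the SMAD3 deletion, the lists of pathway genes held no gene past the threshold in any comparison within a set when all libraries were used. Genes of SMAD turnover had a median log2 fold change of 0.17 in HPRT-targeted against negative control of set B, with 8 of 13 positive. It was 0.04 there without the libraries that stand apart, and 0.07 for LDAH deletion minus HPRT-targeted with all libraries. In the LDAH deletion against its negative control 10 of 13 were positive, beside 51.7% of all genes. Their median was 0.14 beside 0.01 over all genes, and 0.12 without the libraries that stand apart. With all libraries, 1 of them had an unadjusted p under 0.05 in edgeR's test. That gene was RNF111, the ubiquitin ligase of SMAD7 and SKIL, with a log2 fold change of 0.92 ± 0.25 and an adjusted p of 0.693 in edgeR's test. It was 1.04 ± 0.25, with an edgeR adjusted p of 0.0247, without the libraries that stand apart. Ligands were positive for 5 of 6, with a median of 0.28, and genes induced through SMAD1 and SMAD5 had a median of -0.38 with 3 of 7 positive. That median was -0.15 without the libraries that stand apart. With those set aside ID3, a BMP target, was called at -0.65 ± 0.16 (edgeR adjusted p 0.0387), against -0.38 ± 0.27 with all libraries (adjusted p 1.00). These 2 genes were named after their values were seen. In that fit 1.74% of all genes (212 of 12153) were called. Of the 11 endothelial markers 2 were called in it, CDH5 at -0.80 ± 0.15 and EGFL7 at 0.74 ± 0.19, and 0 with all libraries, where the same genes were at -0.71 ± 0.35 and 0.78 ± 0.21. Their part in the differences of RNF111 and ID3 was not tested. For the HPRT effect in set B minus that in set A, all 7 tested genes induced through SMAD1 and SMAD5 were negative, with a median of -0.42, and -0.30 without those libraries, beside -0.03 over all genes. None of the 7 had an unadjusted p under 0.05 in edgeR's test.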
